A study of Mus musculus with 4 samples.

Results

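The clustered histone genes are the genes that supply the histones H1, H2A, H2B, H3 and H4 to newly copied DNA. They were taken here as every protein-coding gene of the mouse annotation (GENCODE M21, GRCm38) whose symbol starts with Hist1h, Hist2h, Hist3h or Hist4h. The annotation holds 67 such genes, and 65 of them had a row among the 51912 annotated genes in the deposited tables, namely 6 H1, 18 H2A, 16 H2B, 12 H3 and 13 H4 genes. Hist1h2bh and Hist1h2bm had no row and were not analysed here. Of the 65 genes, 52 lie on chromosome 13, 10 on chromosome 3, 2 on chromosome 11 and 1 on chromosome 6. The annotation gives 1 exon to 60 of them, and the median exonic length is 539 bases.

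The study measured RNA in long-term haematopoietic stem cells (LT-HSCs), sorted from C57BL/6 mice aged 8 to 12 weeks as LSK CD34- Flk2- cells. LSK stands for lineage-negative, Sca-1-positive and Kit-positive. Wild-type (WT) cells were compared with cells labelled Fam122a KO, with 2 libraries per genotype and cells mixed from 3 animals in each. Fam122a encodes an inhibitor of the phosphatase PP2A, and the series set out to find genes that depend on it. The labels name no allele, Cre driver or time of deletion. The libraries are called WT 1, WT 2, KO 1 and KO 2 after their replicate numbers. WT 2 resembled none of the others, so the KO libraries were compared with WT 1 and its values are given apart.

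Replication-dependent histone genes are switched on together in S phase, when NPAT bound at the gene clusters drives their transcription. Their messages carry no introns and, unlike other messages of animal cells, usually end in a conserved stem-loop instead of a poly(A) tail. The stem-loop binding protein SLBP holds this hairpin through processing, export and translation, and the messages are destroyed when DNA synthesis stops. Some clustered genes also give polyadenylated messages through a signal further downstream, mainly in differentiating or non-dividing cells. The library kit named in the labels, SMART-Seq v4, primes first-strand synthesis on poly(A), so how much of the histone RNA in these cells entered the libraries was not tested.

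The 3′ stem-loop is the shared sequence that sets these genes apart, and it is shown for 8 members whose values are described further on. Each line gives the sequence in the GENCODE M21 transcript, 5′ to 3′, with the 16-base stem-loop in capitals and up to 5 flanking bases on each side in lower case.
Hist1h1e: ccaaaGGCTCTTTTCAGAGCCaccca
Hist1h2ae: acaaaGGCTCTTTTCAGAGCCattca
Hist1h2ap: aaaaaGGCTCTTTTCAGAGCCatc
Hist1h2ad: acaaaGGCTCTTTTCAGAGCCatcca
Hist1h2bk: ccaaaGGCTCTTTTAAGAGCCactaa
Hist1h3c: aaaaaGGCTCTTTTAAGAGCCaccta
Hist1h4d: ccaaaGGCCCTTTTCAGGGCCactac
Hist1h4m: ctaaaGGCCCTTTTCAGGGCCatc
In GRCm38 these lie at chr13:23621777-23621802 (minus strand), chr13:23570663-23570688 (minus), chr13:21833026-21833049 (minus), chr13:23574890-23574915 (plus), chr13:22036295-22036320 (plus), chr13:23745042-23745067 (minus), chr13:23581945-23581970 (plus) and chr13:21812124-21812147 (plus). All 8 are in the 3′ untranslated region of the single exon. A stem-loop of this form was found in the annotated transcript of 44 of the 65 genes, starting 22 to 59 bases after the stop codon (median 32.5). The 44 matches fell into 8 different 16-base sequences. The form in the first 4 lines was found in 24 genes, of types H1, H2A, H2B and H3, and the form shown for Hist1h4d and Hist1h4m in 7 genes, all H4. The H4 genes shared none of their 4 forms with genes of another type. A gene without a match has no such letters in the annotated transcript: 14 of the 21 unmatched genes have an annotated transcript that stops at the stop codon.

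Promoters are shown for 3 genes picked from the levels described below. Hist1h2bq was the most abundant member, Hist1h2bg is read away from the abundant Hist1h2ae, and Hist1h3c was at 0 in both WT libraries. Whether promoter sequence bears on the levels was not tested. Each line holds the 250 bases before the RefSeq start, 5′ to 3′ on the gene's strand, with matches to 3 motifs on either strand in capitals. The motifs were the TATA box, searched as TATAAA, the CCAAT box, searched by the letters of its name, and the octamer, searched as ATTTGCAT.
Hist1h2bq: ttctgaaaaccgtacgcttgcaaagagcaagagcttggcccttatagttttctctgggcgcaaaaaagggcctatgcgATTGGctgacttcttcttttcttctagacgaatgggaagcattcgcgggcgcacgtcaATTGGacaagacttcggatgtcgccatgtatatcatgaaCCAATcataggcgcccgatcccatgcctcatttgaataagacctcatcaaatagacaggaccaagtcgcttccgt
Hist1h2bg: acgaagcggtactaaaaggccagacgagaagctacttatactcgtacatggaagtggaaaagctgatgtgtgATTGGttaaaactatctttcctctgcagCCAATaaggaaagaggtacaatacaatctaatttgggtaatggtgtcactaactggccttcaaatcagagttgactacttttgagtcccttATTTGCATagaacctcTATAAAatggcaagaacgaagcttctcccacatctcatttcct
Hist1h3c: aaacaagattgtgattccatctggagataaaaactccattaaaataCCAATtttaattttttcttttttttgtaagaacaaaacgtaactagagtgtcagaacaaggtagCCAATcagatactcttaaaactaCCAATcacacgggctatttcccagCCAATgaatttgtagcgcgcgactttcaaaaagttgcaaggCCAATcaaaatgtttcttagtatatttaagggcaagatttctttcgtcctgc
They lie in GRCm38.p6 at chr13:21810200-21810449 (minus strand), chr13:23571150-23571399 (plus) and chr13:23745522-23745771 (minus). The 250 bases before Hist1h2br, at chr13:21833493-21833742 (plus strand), are identical to those of Hist1h2bq at 250 of 250 positions. RefSeq windows were matched to 60 of the 65 genes. The CCAAT box was present in 81.7% of them against 33.8% of all 32851 RefSeq windows of that length, and the TATA box in 48.3% against 12.4%. By type, the CCAAT box was in all H1, H2A and H2B windows, in 8 of 10 H3 windows and in 3 of 12 H4 windows. The H4 share, 25%, was thus below that of all windows. Windows of head-to-head genes can overlap, so that the same letters count for both. The octamer was present in 7 of 18 H2A and 6 of 14 H2B windows and in none of the 6 H1, 10 H3 and 12 H4 windows, against 1.60% of all windows. Each motif was counted on its own, whether or not its letters overlapped another, and a match says nothing of binding.

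The deposited values are FPKM, fragment counts scaled by transcript length and library depth. Fam122a itself was at 18.4 FPKM in WT 1, 7.46 in WT 2 and 0 in both KO libraries, as their labels say. Low values of single-transcript genes stepped in whole fragments, which implied depths of 4214000 fragments in WT 1, 2462500 in WT 2, 6888200 in KO 1 and 5890300 in KO 2. Protein-coding genes held 81.9% of the summed FPKM in WT 1, 35.3% in WT 2, 90.9% in KO 1 and 90.1% in KO 2. Over 20434 genes, log2(FPKM + 1) correlated between KO 1 and KO 2 at r = 0.968 and between WT 1 and the KO libraries at 0.852 and 0.845, but between WT 1 and WT 2 at 0.0637. WT 2 therefore stood apart from the other 3 libraries in composition as well as in depth. Of the genes that the gate excludes, Cd34 was at 179 FPKM in WT 1 and at 87.7 and 62.1 in KO 1 and KO 2, and Flt3, which encodes Flk2, was at 26.2 in WT 1 and at 36.2 and 24.7. All 40 markers of 6 other blood cell types were above 0 in WT 1, KO 1 and KO 2. Neutrophil markers summed to 165893 FPKM in WT 1 and to 71072.5 and 61962.5 in the KO libraries, erythroid markers to 51608 against 59731 and 79500.5, and B lineage markers to 276 against 1462 and 2226. Most of the neutrophil sum in WT 1 came from S100a8 (76353 FPKM) and S100a9 (57183). All 8 neutrophil markers were lower in both KO libraries, but Ltf only slightly, at 2669 FPKM in WT 1, 2658 in KO 1 and 2611 in KO 2. The part of these differences in the histone results was not tested, and in bulk RNA fewer cells of a type and less RNA per cell cannot be told apart.

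A handful of genes carried most of the histone signal, and the 3 highest were the same in WT 1, KO 1 and KO 2. Hist1h2bq, an H2B gene, was at 2481 FPKM in WT 1, 2659 in KO 1 and 2643 in KO 2. Hist1h2ap, an H2A gene, was at 1027 FPKM in WT 1, 789.8 in KO 1 and 686 in KO 2. Hist1h4d, an H4 gene, was at 521, 508 and 655 FPKM in that order of libraries and at 4.40 in WT 2. With Hist1h2ae and Hist1h2bk these genes made up 88.2% of the members' summed FPKM in WT 1, 87.4% in KO 1 and 71.9% in KO 2. By contrast, 46 of the 65 genes were under 20 FPKM in each of WT 1, KO 1 and KO 2, and 11 were at or above 20 FPKM in all of them. Hist1h2aa and Hist1h2ba, a divergent pair of testis-type histone genes, were at 0 in all 4 libraries.

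**Figure D1:**
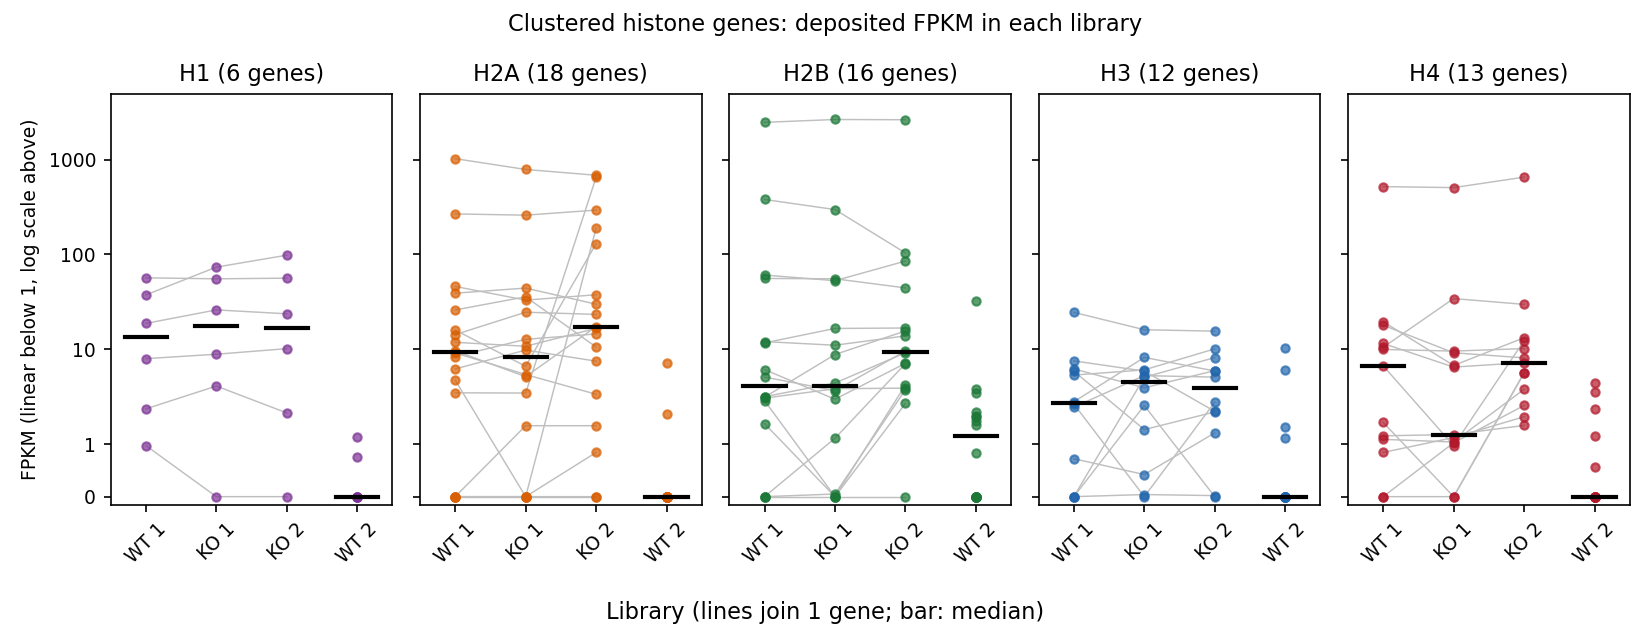
Deposited FPKM of the 65 clustered histone genes, 1 panel per histone type, with 1 point per gene and library, grey lines joining a gene across WT 1, KO 1 and KO 2, and a black bar at the median. The vertical axis is linear below 1 FPKM and logarithmic above. Hist1h2bq is the highest point in WT 1, KO 1 and KO 2, at up to 2659 FPKM, while WT 2 stays at or under 32.1 FPKM.

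By type, H2B genes summed to 3027 FPKM in WT 1, 3117 in KO 1 and 2970 in KO 2. H2A genes summed to 1489 FPKM in WT 1, 1243 in KO 1 and 2116 in KO 2, so WT 1 lay between the KO libraries. H4 genes summed to 602, 579.5 and 757 FPKM, again with WT 1 between them. H3 genes were the lowest of the core histone types, at 58.0, 54.9 and 59.2 FPKM over 12 genes. H1, the linker histone genes, summed to 124 FPKM in WT 1 and to 168 and 191 FPKM in the KO libraries. By summed FPKM, H1 was the only type with both KO libraries above WT 1. Within H1, Hist1h1e alone was at 37.5, 73.6 and 98.4 FPKM. As a share of protein-coding FPKM, both KO libraries were above WT 1 in H1, H2B, H3 and H4, and WT 1 lay between them in H2A. Over all 65 genes the sum was 5300.2 FPKM in WT 1, 5163 in KO 1 and 6093 in KO 2, which is 0.97 and 1.15 times WT 1. The share of protein-coding FPKM was 0.617% in WT 1, 0.683% in KO 1 and 0.829% in KO 2.

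In WT 2 the histone genes were listed at low values or 0. Their FPKM summed to 92.0, and 43 of 65 genes were at 0, against 12 in WT 1, 11 in KO 1 and 5 in KO 2. Hist1h2bq was at 32.1 FPKM there, and Hist1h2ap, the runner-up elsewhere, was at 0. Only Hist1h2af, Hist1h3f and Hist4h4 were higher in WT 2 than in all other libraries. Hist1h3f, an H3 gene, was at 10.4 FPKM in WT 2 against 5.86 in WT 1, 1.42 in KO 1 and 2.18 in KO 2.

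Because most histone genes have 1 exon, reads from DNA cannot be told from reads of their RNA, and single-exon chemoreceptor genes, which blood cells are not known to use, were read beside them. The 213 olfactory, vomeronasal and taste receptor genes of this kind averaged 0.34 FPKM in WT 1, 1.37 in WT 2, 0.016 in KO 1 and 0.013 in KO 2. The histone genes averaged 81.5, 1.42, 79.4 and 93.7 FPKM in the same order, so in WT 2 the averages of the histone and receptor genes were close. The highest receptor gene reached 7.24 FPKM in WT 1, 33.1 in WT 2, 0.46 in KO 1 and 0.42 in KO 2. Above that level lay 29 of the 65 histone genes in WT 1, 0 in WT 2, 51 in KO 1 and 59 in KO 2. In WT 1 another 24 histone genes, 3 of them with several exons, were above 0 but within the receptor range. That range rests on 1 gene, Vmn1r111, since the next receptor gene was at 3.79 FPKM and 37 histone genes lay above it. Between the first and last histone gene on chromosome 13 lie 45 other protein-coding genes, which averaged 1.80 FPKM in WT 1, 0.97 in WT 2, 1.65 in KO 1 and 1.41 in KO 2.

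**Figure D2:**
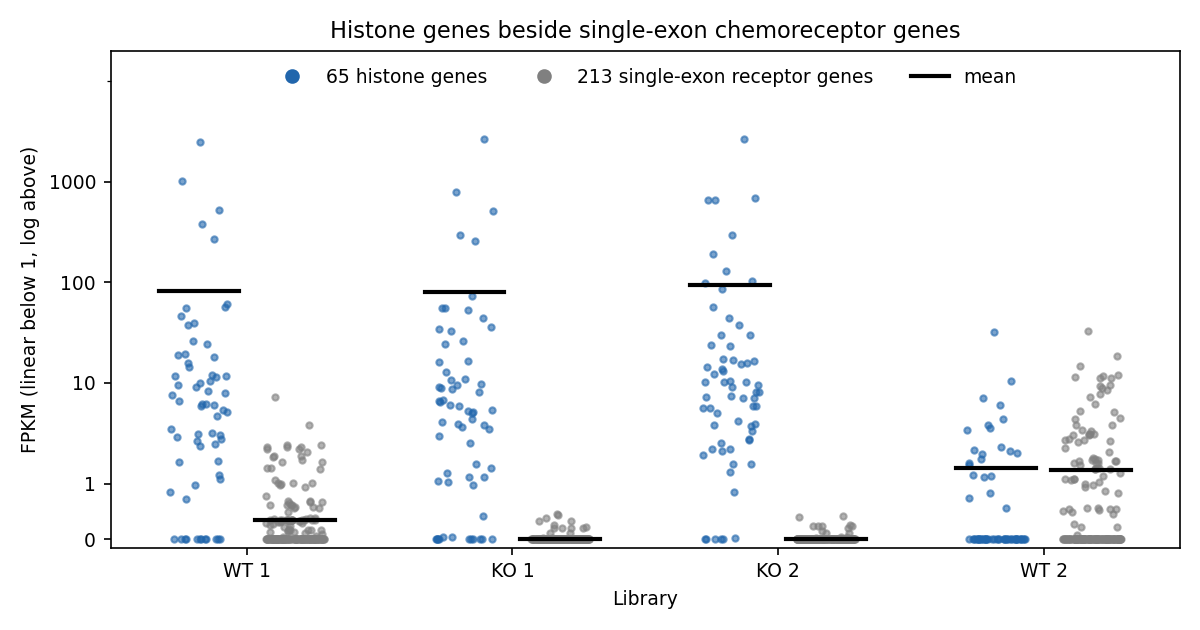
FPKM of the 65 histone genes (blue) and of 213 single-exon chemoreceptor genes (grey) in each library, 1 point per gene, with a black bar at the mean and an axis that is linear below 1 FPKM and logarithmic above. Above every receptor gene lie 29 histone genes in WT 1, 51 in KO 1 and 59 in KO 2 but 0 in WT 2, where the means are 1.42 and 1.37 FPKM.

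The comparison of KO 1 and KO 2 with WT 1 asked which histone genes differ when Fam122a is lost. Among the members 1 was called higher in KO and 1 lower, and both calls rested on a few fragments. Across all 15867 genes tested, limma on log2(FPKM + 1) called 0.454% higher and 9.37% lower in KO at an adjusted p of 0.05. With libraries centred on their median the whole-table calls were 1030 higher and 2322 lower instead of 72 and 1487, and with quantile normalization 865 and 1716. Of 58 members tested, 34 (58.6%) had a difference above 0 and 24 below, where 49.9% of all tested genes were above 0. The median was 0.15 on the log2 scale against -0.0021 over all tested genes and 0.08 over 288 other single-exon coding genes. This order depended on the filter: with a mean of at least 5 FPKM the medians were 0.07 for the members and 0.14 over all tested genes. At an unadjusted p under 0.05 stood 6 members on the higher and 4 on the lower side, against 2091 and 3209 of all tested genes. Both KO libraries were above WT 1 for 22 of the 58 members and below it for 15, where 42.5% and 43% of all tested genes were. The single WT library gives no spread of its own and is assumed to vary like the KO pair. The 7 members not tested had a mean under 1 FPKM over the 3 libraries.

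Hist1h2af, the H2A gene called higher, was at 0 FPKM in WT 1, 2.09 in WT 2 and 1.56 in both KO libraries. The log2 difference was 1.36 (SE 0.05, limma adjusted p = 0.0259), with both KO libraries above WT 1 and below WT 2. The KO values stand for about 1.6 and 1.5 fragments, and 94.0% of its 50-base stretches occur in another gene. Hist2h2aa2, the H2A gene called lower, was at 4.72 FPKM in WT 1, about 5.7 fragments, and at 0 in WT 2, KO 1 and KO 2 (-2.52, SE 0.05, limma adjusted p = 0.0142). Every 50-base stretch of its transcript is also found in another gene, among them its twin Hist2h2aa1, so the deposited counting could split reads between them. Summed over the 2 copies the values were 50.7 FPKM in WT 1, 33.0 in KO 1 and 37.6 in KO 2, and with copies summed this difference did not pass (limma adjusted p = 0.17). Of the 1487 genes called lower in the whole table, 522 were likewise at 0 in both KO libraries, where the KO pair has no spread.

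**Figure D3:**
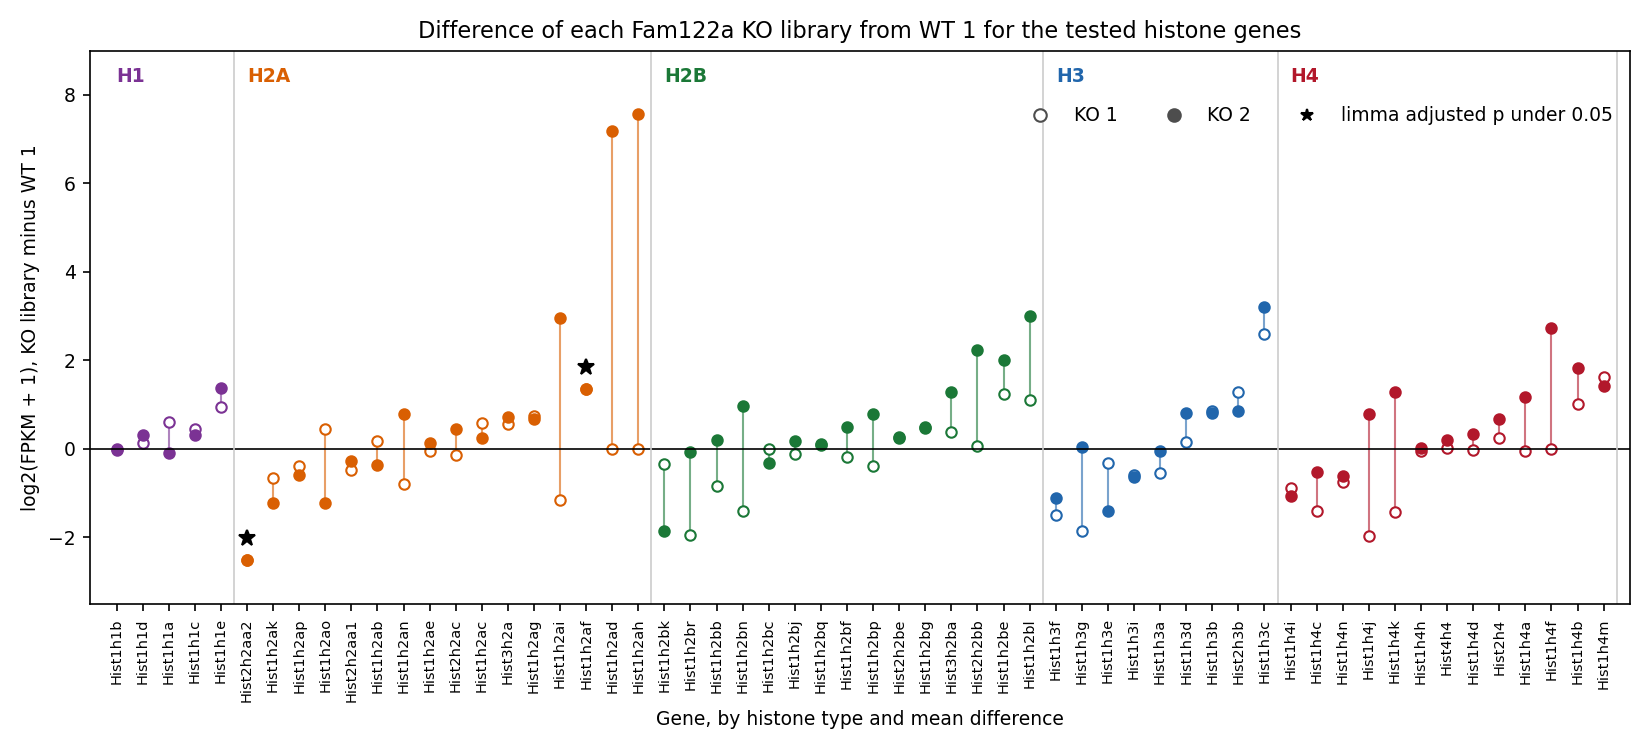
Difference of KO 1 (open) and KO 2 (filled) from WT 1 in log2(FPKM + 1) for the 58 tested histone genes, ordered within each type by the mean difference, with a line joining the KO libraries of a gene and a star over a limma adjusted p under 0.05. For 21 genes the KO libraries lie on both sides of WT 1 or level with it, the long lines belong to genes such as Hist1h2ad and Hist1h2ah that differ between the KO libraries, and the stars mark Hist2h2aa2 and Hist1h2af.

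The H1 genes encode linker histones, which bind where DNA enters and leaves the nucleosome. Hist1h1e, the H1.4 gene, was at 37.5 FPKM in WT 1, 0 in WT 2, 73.6 in KO 1 and 98.4 in KO 2. Both KO libraries were above WT 1, with a log2 difference of 1.16 (SE 0.26), which did not pass (limma adjusted p = 0.145). Hist1h1e was called higher after median centring, where 1030 of all 15867 tested genes were. Hist1h1c, the H1.2 gene, was at 18.7 FPKM in WT 1, 1.19 in WT 2, 26.0 in KO 1 and 23.7 in KO 2 (0.39, SE 0.14, limma adjusted p = 0.215). The H1.2 values thus ran the same way within a narrower range. Hist1h1b, the H1.5 gene, was at nearly 1 level in 3 libraries, with 56.8 FPKM in WT 1, 55.4 in KO 1 and 56.3 in KO 2, and was at 0 in WT 2. Hist1h1d, the H1.3 gene, was at 7.96, 8.86 and 10.2 FPKM and at 0.75 in WT 2. The last H1 genes were near the floor. Hist1h1a was at 2.35 in WT 1, 0 in WT 2, 4.09 in KO 1 and 2.13 in KO 2. Hist1h1t, the testis-specific H1 gene, was at 0.97 FPKM in WT 1 and 0 in the other libraries. The order of the H1 genes changed at the top, from Hist1h1b above Hist1h1e in WT 1 to Hist1h1e above Hist1h1b in both KO libraries.

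The H2A genes held the widest single differences between the KO libraries. The median gap was wider in H2B genes (0.84 on the log2(FPKM + 1) scale) than in H2A genes (0.45). Hist1h2ae was at 268 FPKM in WT 1, 7.12 in WT 2, 260.1 in KO 1 and 294 in KO 2, with WT 1 between the KO libraries. Hist1h2ap was at 0 in WT 2, and its log2 difference of KO from WT 1 was -0.48 (SE 0.17, limma adjusted p = 0.211). Hist1h2ap was thus below WT 1 in both KO libraries without passing the test. In 3 other H2A genes KO 2 was far above KO 1. Hist1h2ad was at 3.47 FPKM in WT 1, 0 in WT 2 and 3.45 in KO 1 but at 652.9 in KO 2. Hist1h2ah was at 0 in WT 1, WT 2 and KO 1 and at 190.0 FPKM in KO 2. Hist1h2ai, named after its values were seen, was at 15.9, 6.62 and 130.3 FPKM in WT 1, KO 1 and KO 2 and at 0 in WT 2. KO 2 alone was high in these 3 genes, and WT 1 and KO 1 overlapped at low values. Of their 50-base stretches, 67.1% (Hist1h2ad), 92.1% (Hist1h2ah) and 90.1% (Hist1h2ai) occur in another gene. Hist1h2an was also higher in KO 2, at 17.3 FPKM against 5.14 in KO 1. Hist1h2ao ran the other way, at 10.55 FPKM in KO 2 against 35.8 in KO 1.

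**Figure D4:**
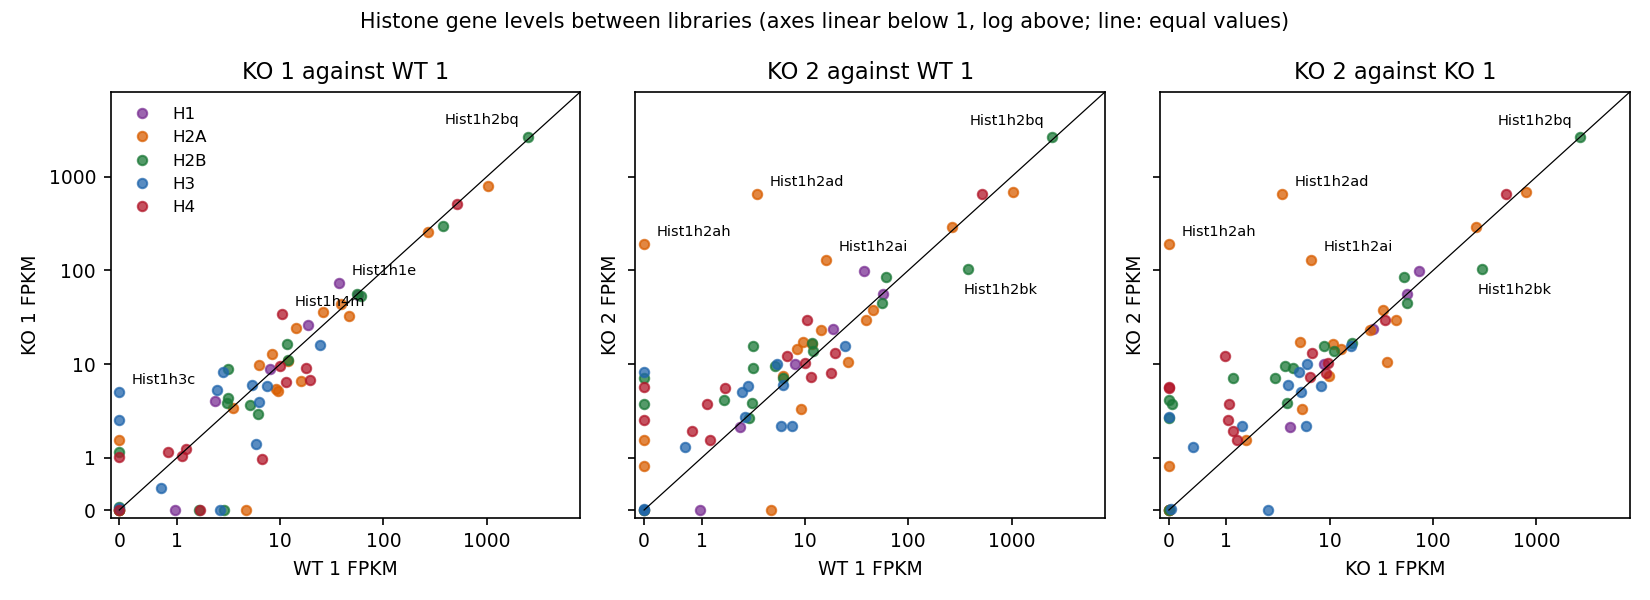
FPKM of each histone gene in KO 1 against WT 1, KO 2 against WT 1 and KO 2 against KO 1, coloured by type, on axes that are linear below 1 FPKM and logarithmic above, with a line at equal values. The genes follow the line closely between WT 1 and KO 1, while Hist1h2ad, Hist1h2ah and Hist1h2ai stand above it and Hist1h2bk below it in KO 2.

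Across the 65 genes, log2(FPKM + 1) correlated between WT 1 and KO 1 at r = 0.93, between WT 1 and KO 2 at 0.79 and between KO 1 and KO 2 at 0.80. These values are across genes that share sequence and libraries. KO 2 was thus about as far from WT 1 as from KO 1, and KO 1 was closer to WT 1 than to KO 2, without a test of these differences. Over 20434 genes KO 1 was closer to KO 2 (0.968) than to WT 1 (0.852). The KO libraries differed by more than 1 on the log2(FPKM + 1) scale in 19 of the 65 genes, 0 of them H1, 5 H2A, 7 H2B, 3 H3 and 4 H4. KO 2 was the higher of the pair in 41 of the 65.

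Among the H2B genes, Hist1h2bq was level, with a log2 difference of 0.10 (SE 0.20). Hist1h2bk was at 380.7 FPKM in WT 1, 1.76 in WT 2, 298 in KO 1 and 104 in KO 2, so KO 2 was the low library (-1.11, SE 0.92). Its KO libraries differed more from each other than KO 1 did from WT 1. Hist1h2bf was at 60.7 FPKM in WT 1, 3.42 in WT 2, 52.9 in KO 1 and 85.2 in KO 2, and Hist1h2bc at 55.9, 55.4 and 44.4 in WT 1, KO 1 and KO 2. Hist1h2bc has 2 exons and no stem-loop match in its annotated transcript, and it was at 0 in WT 2. The H2B genes with the smallest p were both higher in KO than in WT 1 but did not pass. Hist1h2be was at 3.12 FPKM in WT 1, 3.82 in WT 2, 8.80 in KO 1 and 15.6 in KO 2 (1.63, SE 0.50, limma adjusted p = 0.189). Its annotated exons span 4446 bases and share sequence with Hist1h1e, so reads of one may be counted to the other. Hist1h2bg was at 11.7 FPKM in WT 1, 0 in WT 2 and 16.6 and 16.8 in the KO libraries (0.48, SE 0.14, limma adjusted p = 0.18).

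The H3 genes include Hist1h3c, which earlier work on these data had singled out for its small p in KO against WT, so its values are a description. It was at 0 FPKM in WT 1 and WT 2, 5.06 in KO 1 and 8.17 in KO 2, about 13.2 and 18.8 fragments. Both KO libraries were above WT 1, while in WT 2 43 of the 65 histone genes were at 0. The KO mean of Hist1h3c was 3.62 times a floor of 3 fragments in WT 1, a floor that covers counting error only. Of its 50-base stretches, 47.0% occur in another gene. Whether its reads in WT 1 were listed on copies was not tested, so this ratio is not a lower bound. The fitted log2 difference of Hist1h3c, 2.90 (SE 0.39), did not pass in limma. Hist1h3c was called higher after median centring and after quantile normalization of the libraries, where 1030 and 865 of all 15867 tested genes were. Hist1h3b was at 2.45 FPKM in WT 1, 0 in WT 2, 5.27 in KO 1 and 5.08 in KO 2 (0.84, SE 0.17, limma adjusted p = 0.132). Hist1h3i, the highest H3 gene, was at 24.5 FPKM in WT 1, 6.01 in WT 2 and 16.1 and 15.5 in the KO libraries (-0.60, SE 0.13, limma adjusted p = 0.135). Hist1h3b and Hist1h3i thus lay on opposite sides of 0. The remaining named H3 genes were low. Hist1h3a was at 6.20, 0, 3.92 and 5.95 FPKM in WT 1, WT 2, KO 1 and KO 2, Hist1h3d at 5.34, 1.15, 6.06 and 10.1, and Hist2h3b at 2.79, 0, 8.20 and 5.90. Over the 9 H3 genes tested, 4 had a difference above 0, and both KO libraries were above WT 1 in 4 and below it in 4. The 9 Hist1h3 genes, which share sequence, summed to 54.5 FPKM in WT 1, 46.2 in KO 1 and 52.0 in KO 2, with both KO libraries below WT 1 (-0.15, SE 0.13, limma adjusted p = 0.483).

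Among the H4 genes, all of which encode the same kind of short core histone, Hist1h4m and Hist1h4i were furthest from 0 relative to their spread. Hist1h4m was at 10.5 FPKM in WT 1, 1.21 in WT 2, 34.3 in KO 1 and 29.8 in KO 2, about 7.2, 36.4 and 28.6 fragments in WT 1, KO 1 and KO 2. Both KO libraries were above WT 1, with a log2 difference of 1.52 (SE 0.16) that did not pass (limma adjusted p = 0.0766). Hist1h4m, too, was called higher after median centring and after quantile normalization, where 1030 and 865 of all 15867 tested genes were. Its neighbour Hist1h4n, which shares sequence with it and was named after its values were seen, ran the other way at 11.5, 6.48 and 7.23 FPKM, and the pair summed to 22.0 FPKM in WT 1, 40.8 in KO 1 and 37.0 in KO 2 (0.79, SE 0.12, limma adjusted p = 0.106). Hist1h4i was at 17.9 FPKM in WT 1, 2.33 in WT 2, 9.18 in KO 1 and 8.11 in KO 2 (-0.98, SE 0.19, limma adjusted p = 0.127). Hist1h4c was at 19.6, 6.74 and 13.2 FPKM in WT 1, KO 1 and KO 2 and at 0 in WT 2. Hist1h4d held 86.5% of the H4 sum in WT 1, 87.6% in KO 1 and 86.5% in KO 2, with a log2 difference of 0.15 (SE 0.24).

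Reads of sequence shared by several genes may have been placed on any of them by the deposited counting, so FPKM was also summed over such genes. Of the 65 genes, 34 share more than 50% of their 50-base stretches with another gene. Members were joined where at least 50% of the stretches of either one occur in the other, which put 44 genes into 7 groups in which a longer gene may share less. The 11 H2A genes of the group that includes Hist1h2ap, Hist1h2ad, Hist1h2ah and Hist1h2ai summed to 1409 FPKM in WT 1, 1181 in KO 1 and 2043 in KO 2. WT 1 lay between the KO libraries (log2 difference 0.14, SE 0.50), so the excess of KO 2 in single copies was still present in the sum. The 11 H2B copies with Hist1h2bq and Hist1h2bk summed to 3015, 3106 and 2946 FPKM (0.0050, SE 0.23). The 3 copies Hist2h3b, Hist2h3c1 and Hist2h3c2 summed to 3.51, 8.66 and 7.23 FPKM (0.98, SE 0.23, limma adjusted p = 0.151). The 6 H4 copies with Hist1h4c summed to 39.0, 19.4 and 47.6 FPKM. None of the 7 sums passed in limma, and 1, of Hist1h4m and Hist1h4n, had an unadjusted p under 0.05.

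**Figure D5:**
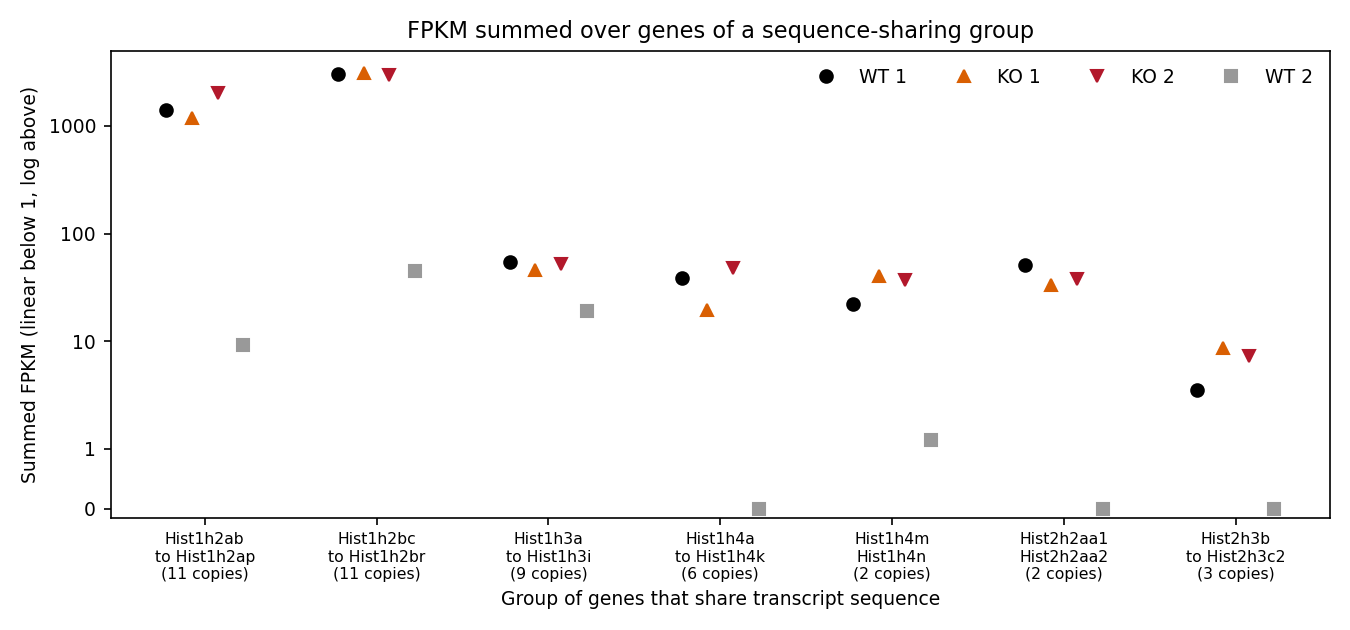
FPKM summed over the members of each of the 7 groups of histone genes that share sequence in WT 1 (circles), KO 1 and KO 2 (triangles) and WT 2 (squares), on an axis that is linear below 1 FPKM and logarithmic above. WT 1 lies between the KO libraries for the 11 H2A and 11 H2B copies, both KO libraries lie above WT 1 for Hist1h4m with Hist1h4n and for the Hist2h3 copies, and WT 2 is lowest in every group.

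When both WT libraries were compared with both KO libraries, no gene was called. Over 20434 genes tested, limma called 0% (smallest adjusted p 0.309), with 118 genes higher and 2364 lower in KO at an unadjusted p under 0.05. Of 56 members tested, 52 had a difference above 0, where 46.7% of all tested genes did. The members' median was 1.61 against -0.28 over all tested genes. The smallest limma adjusted p of a member was 0.33, of Hist1h3c. The WT pair differed far more than the KO pair, since the members summed to 5300.2 FPKM in WT 1 and 92.0 in WT 2. With WT 2 as the only WT library, limma called 28 of 55 members higher and 3 lower in KO, where it called 34.2% of all 20739 genes tested higher and 42.7% lower. With WT 1 as the only one, it called 1 and 1.

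H2A and H2B genes commonly lie head to head and share the stretch between their starts, and 12 such pairs lie within 1000 bases of each other here, with starts 175 to 305 bases apart. The partners differed widely in some pairs and little in others. Hist1h2ae was at 268 FPKM in WT 1 and its partner Hist1h2bg at 11.7, whose shared promoter is shown above with its octamer. Hist1h2ap was at 1027 FPKM and its partner Hist1h2br at 2.87. Hist1h2bq was at 2481 FPKM and its partner Hist1h2ao at 26.0. In KO 1 and KO 2 the same partner was the higher in each of these 3 pairs. In others, named after their values were seen, the partners were close: Hist1h2ag was at 14.3 FPKM in WT 1 and Hist1h2bj at 12.0, and Hist1h2an at 9.62 and Hist1h2bp at 5.09. Hist1h2bq and Hist1h2br have the same 250 bases before their starts and share sequence over 97.3% and 88.7% of their 50-base stretches, yet were listed at 2481 and 2.87 FPKM in WT 1, at 2659 and 0 in KO 1 and at 2643 and 2.68 in KO 2. Their partners Hist1h2ao and Hist1h2ap likewise share 93.5% and 93.1% of their 50-base stretches with each other. Which copy the reads of these genes came from cannot be told apart here. The listed differences between partners in these pairs may thus reflect how reads were placed, which was not tested.

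Levels were lowest for genes whose annotated transcript stops at the stop codon, which are also the shortest. The 22 genes with a stem-loop and under 100 bases after it had a median of 10.2 FPKM in WT 1, 8.02 in KO 1 and 10.4 in KO 2. The 22 with a stem-loop and 100 bases or more after it, such as Hist1h4d and Hist1h1e, had medians of 6.44, 6.40 and 9.63 FPKM. The 14 with no stem-loop match and no annotated 3′ untranslated region had medians of 0.82, 1.35 and 3.96 FPKM, and their median length was 393 bases. A median of 84.3% of their 50-base stretches occur in another gene, against 63.1% and 24.7% for the stem-loop genes with under 100 and with 100 or more bases after it. Reads of these 14 genes may thus be listed on copies, which was not tested. The 4 with no match but 100 bases or more of 3′ untranslated region were Hist1h2bc, Hist1h2bq, Hist1h2br and Hist2h2be, of which Hist1h2bq led all members. FPKM of the shortest genes rest on few fragments, so that the 1.15 FPKM of Hist1h2bl in KO 1 stood for about 1.1 fragments.

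The genes that make and handle histone messages were read from lists chosen with earlier results of these data known. Over all tested genes, 49.9% had a difference of KO from WT 1 above 0. Of 24 genes for histone transcription, 3′ processing and decay, 16 had a difference of KO from WT 1 above 0, none was called by limma (3 higher and 0 lower at an unadjusted p under 0.05), and the median was 0.23. Slbp was at 152 FPKM in WT 1, 9.58 in WT 2, 156 in KO 1 and 197 in KO 2 (0.21, SE 0.21, limma adjusted p = 0.552). Npat was at 9.21, 33.5, 8.38 and 8.31 FPKM in the same order (-0.13, SE 0.18, limma adjusted p = 0.65). Srrt, whose protein ARS2 takes part in histone message processing, had the smallest p of the list, at 32.3 FPKM in WT 1, 1.72 in WT 2, 69.5 in KO 1 and 71.0 in KO 2 (1.097, SE 0.08, limma adjusted p = 0.0508). The others named by the rule had log2 differences of 0.95 (Sympk), 0.50 (Cstf2) and 0.31 (Snrpb). In WT 1, WT 2, KO 1 and KO 2, Sympk was at 6.52, 0.87, 13.2 and 13.8 FPKM, Cstf2 at 20.4, 0.83, 29.1 and 29.6, and Snrpb at 286, 3.79, 356 and 355.

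Of 22 histone chaperone genes, 16 were above 0 with a median of 0.63, and limma called none (8 higher and 1 lower at an unadjusted p under 0.05). Chaf1a, the large subunit of the replication-coupled H3-H4 chaperone CAF-1, was at 18.8 FPKM in WT 1, 9.32 in WT 2, 46.4 in KO 1 and 53.0 in KO 2 (1.36, SE 0.14, limma adjusted p = 0.0763). Hira, of the replication-independent H3.3 pathway, was at 29.1, 83.3, 5.11 and 6.24 FPKM (-2.18, SE 0.22, limma adjusted p = 0.0737), highest in WT 2. Cabin1 was at 15.5, 0.90, 32.5 and 33.1 FPKM and Ipo4 at 21.7, 0, 41.6 and 39.0, with log2 differences of 1.04 and 0.86. Of 12 replacement and other polyadenylated histone genes outside the clusters, 8 were above 0 with a median of 0.35. Among these 12, limma called none (3 higher and 1 lower at an unadjusted p under 0.05). H2afx was at 123 FPKM in WT 1, 0.68 in WT 2, 268.8 in KO 1 and 368 in KO 2 (1.34, SE 0.29, limma adjusted p = 0.137). H1fx was at 1.68, 0, 6.20 and 8.14 FPKM and H1f0 at 26.7, 0.19, 42.8 and 50.95, with log2 differences of 1.60 and 0.78. H2afy2 was highest in WT 2, at 7.38, 63.4, 2.18 and 2.18 FPKM (-1.40).

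Beside the histone genes, 24 of 30 S phase genes and 20 of 20 genes of G2 and M phase had differences of KO from WT 1 above 0, with medians of 0.42 and 0.68, and 1 of each list passed. Lig1, the ligase that joins replicated strands, was at 31.2 FPKM in WT 1, 1.35 in WT 2, 73.7 in KO 1 and 74.2 in KO 2 (1.22, SE 0.08, limma adjusted p = 0.0437). Mki67, a marker of dividing cells, was at 21.6, 1.86, 61.8 and 66.6 FPKM (1.53, SE 0.10, limma adjusted p = 0.0473). Lig1 lost its call under 5 and Mki67 under 6 of the other settings tried. The clustered histone genes, with a median of 0.15 and 34 of 58 above 0, lay below both lists, and the difference between the lists was not tested. Over all tested genes 49.9% were above 0, with a median of -0.0021. The other S phase genes named by the rule had log2 differences of 1.02 (E2f1), 0.76 (Mcm5) and 0.85 (Mcm3). In WT 1, WT 2, KO 1 and KO 2, E2f1 was at 20.7, 0.16, 41.9 and 44.2 FPKM, Mcm5 at 127, 0.98, 205 and 229, and Mcm3 at 113, 0.42, 192 and 219.8. For the genes of G2 and M phase the differences were 0.90 (Cenpf), 0.74 (Tpx2) and 0.63 (Aurka). Cenpf was at 11.8, 5.46, 22.3 and 23.4 FPKM, Tpx2 at 27.2, 0.61, 43.1 and 49.2, and Aurka at 41.1, 0.97, 59.97 and 68.4.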

How the data were processed

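RNA was measured in 4 LT-HSC libraries, 2 WT and 2 Fam122a KO, grouped by their titles. The deposited tables hold FPKM for 87703 rows, of which 51912 are Ensembl genes. The unit is taken from the values, which have no header. Per the submitters' processing notes, STAR 2.7.1a and HISAT2 2.1.0 were used with mm10 or GRCm38.p5, in roles not given in the sources used here, and the counting program and its use of strand are likewise not given there. Gene symbols come from GENCODE M21, promoters from RefSeq (GRCm38.p6). Members, gene lists and comparisons were chosen with earlier results of these data known.

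Differences were tested with limma 3.58.1 (R 4.3.3, intensity trend) on log2(FPKM + 1) over all genes with a mean of at least 1 FPKM in the compared libraries, with Benjamini-Hochberg adjustment over all of them and a threshold of 0.05. A log2 difference on this scale understates the change of low genes. FPKM steps fitted whole fragments over an effective length (transcript length less mean fragment length) for 84.6% to 90.3% of low values within 0.1 of a whole number, and fragment numbers are estimates from that fit. They cover counting error only. The test was tried on simulated data. Values in every library are given for Hist1h3c, all H1 genes, called genes and, per type, the 4 highest and the 2 with the smallest p, and from each list for the 4 genes with the smallest p, with Slbp and Npat. Shared sequence was counted as 50-base stretches of a transcript found in another gene. Other pseudocounts, filters, scalings, background subtractions and left-out libraries were tried. Samples with the same number were not treated as pairs, since the labels do not say that they share an animal or a day. The correlation of their deviations was 0.0394 over 20434 genes. WT 2 stood so far from WT 1 that this value cannot show whether they were paired.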

Additional observations from a re-analysis of the deposited data

Results flagged for a closer look

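A row outside the members gave a low signal in KO 2 only. The unprocessed pseudogene Hist1h2aj, on chromosome 13 between the histone genes, was at 3.64 FPKM in KO 2 and at 0 in WT 1, WT 2 and KO 1. KO 2 was also the library with the high values of Hist1h2ad, Hist1h2ah and Hist1h2ai.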

How the results depend on the processing

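In KO against WT 1, the 1 member called higher and the 1 called lower became 0 and 0 with a filter of 1 FPKM in 2 libraries, with a mean of at least 5 FPKM, with single-exon coding genes only and with copies summed, which was chosen after seeing the data. With no intensity trend and with the WT 2 profile subtracted from WT 1, 0 were called higher. With no filter 2 were called lower. Centring on the median called 4 of 58 members higher (Hist1h1e, Hist1h2af, Hist1h3c and Hist1h4m), where 1030 of all 15867 tested genes were called higher. Quantile normalization called 5 (Hist1h2af, Hist1h3b, Hist1h3c, Hist1h4m and Hist4h4), where 865 of all tested genes were, with a members' median of 0.52 (all tested genes 0.21). The causes were not tested. Leaving out either KO library, which allows no test, gave members' medians of -0.036 to 0.33. Equal coding totals moved the median of all tested genes to 0.19 and that of the members to 0.35. With 1 FPKM in 2 libraries the members' median was 0.13 against 0.12 over all tested genes. With a mean of at least 5 FPKM it was 0.07 against 0.14, and with the WT 2 profile subtracted 0.16 against 0.46. The members' median thus did not lie above that of all tested genes under every setting. By type, the median moved by more than 1 SD between the KO libraries under 1 setting for H1, 2 for H2B, 4 for H3 and 3 for H4, and under none for H2A. Over all genes, calls ranged from 18 to 1030 higher and from 196 to 9265 lower against 72 and 1487, single-exon genes alone (0 and 0, fewer genes tested) left aside.

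In KO against both WT libraries, leaving out 1 library called 0 to 28 members higher and 0 to 3 lower, the most without WT 1, where 7103 and 8850 of all 20739 genes were called. Over these, the log2 difference of Hist1h2af ran from -0.27 (without WT 1) to 1.36 and that of Hist1h4i from -0.98 (without WT 2) to 1.53. The replicate block called 0 members in either direction and left their median at 1.61. The call of Hist1h2af rests on under 3 fragments in each KO library.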
